A study of Mus musculus with 72 samples.

Results

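SNARE proteins are the membrane fusion proteins of the secretory and endocytic pathways. A SNARE on a vesicle and its partners on the target membrane zip together into a 4-helix bundle that draws both membranes into contact. Most SNAREs are tail-anchored: their single membrane segment lies at the extreme C-terminus, so it leaves the ribosome only when translation ends and is inserted into the membrane afterwards, without a signal peptide that would bring the translating ribosome to the endoplasmic reticulum. The data described here are the read counts and the labeling of newly made RNA for 10 such genes, chosen by symbol, out of 51826 genes in the count files of mouse embryonic stem cells (mESCs). They are the R-SNAREs Vamp2, Vamp3, Vamp4, Vamp8 and Sec22b, which contribute an arginine to the centre of the bundle, the Qa-SNAREs or syntaxins Stx5a, Stx7 and Stx12, and the Qc-type SNAREs Stx8 and Bet1. Of the 51826 genes, 16093 had enough reads to be tested between fractions, and all 10 SNARE genes were among them.

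All libraries came from cultures of the E14TG2a line of mESCs, without a genetic change or an unlabeled control used here. RNA was labeled with 4-thiouridine (4sU), a uridine analog that is read as a T-to-C change after alkylation (SLAM-seq), and the cells were then split into a nucleus, a cytosol and a membrane fraction, beside whole cells. The labels give 15, 20, 30 and 40 min of labeling at 500 µM 4sU and 60 and 120 min at 100 µM. Of 72 libraries, 64 were used (16 cultures in each of the 4 preparations, from 6 replicates), and the 8 libraries of replicates 3 and 4 at 120 min were set aside. Replicates 1 and 2 held 15, 20 and 30 min, replicates 3 and 4 held 20, 40 and 60 min, and replicates 5 and 6 held 60 and 120 min, so time and replicate pair cannot be fully told apart. Reads on genes ranged from 15382522 to 52975732 per library used. The conversion probability, deposited for each library, ranged from 2.07% to 8.29%. At 60 min it averaged 7.43% in replicates 3 and 4 and 3.01% in replicates 5 and 6, so that pooled values at that time mix pairs of different conversion. The dose of replicates 3 and 4 at 60 min is uncertain, since the published methods list the higher dose for some 60 min cultures where the labels give the lower one. The 8 libraries set aside averaged 10.7%, against 3.63% in replicates 5 and 6 at 120 min. They were taken to be cultures at 500 µM for over 60 min, which the paper excludes because gene expression changed. The labels give 100 µM for them, so their dose is uncertain too. The mESC markers (7 genes, among them Pou5f1, Sox2 and Nanog) summed to between 2559 and 6469 CPM in every fraction (CPM being read counts scaled to the size of the library), against 16.04 to 30.32 CPM for 10 markers of other lineages. The membrane fraction carried 4.39% to 15.3% mitochondrial mRNA against 0.0263% to 0.204% in the cytosol. The part of this difference in the levels below was not tested.

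In the GENCODE M21 annotation of GRCm38, each of the 10 proteins held exactly 1 hydrophobic segment, found as a 19-residue window of mean Kyte-Doolittle hydropathy of at least 1.6, and that window began 20 to 26 residues before the C-terminus. The window ended 1 to 7 residues from the last amino acid, so that almost nothing follows the anchor. The codons of the middle of that segment are shown for 4 members, because this stretch is what makes the protein tail-anchored. Each line gives 30 coding bases in the 5′ to 3′ direction as the RNA is read, from the GENCODE transcripts, and the capitals mark codons with T as the second base, which encode the hydrophobic residues.
Vamp2: ggaGTGATCtgcgccATCATCCTCATCATC
Vamp3: agtGTCCTGGTGATCATTGTCATCATCATC
Bet1: ATGCTGTTTtcaTTGTTTGTCTTTTTTGTC
Sec22b: gctGTGTTTTTCATCATGCTGATAGTGtat
In Vamp2, 7 of the 10 codons shown had T as the second base, in Sec22b 8, and in Vamp3 and Bet1 9. The Bet1 stretch held 19 T among its 30 bases, the Vamp2 stretch 8. Vamp2 and Vamp3, both known as synaptobrevin-type SNAREs of exocytic and recycling vesicles, shared 80 of 103 aligned residues (77.7% of the shorter protein), and Stx7 and Stx12, both syntaxins of endosomes, shared 55.2%.

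The genes differ widely in size. Vamp2 (chromosome 11, 69088490 to 69092384, plus strand) spans 3895 bases, whereas Stx8 (chromosome 11, 67966193 to 68207148, plus strand) spans 240956 bases. The other 8 lie between, from Vamp8 (5481 bases, chromosome 6, 72385223 to 72390703, minus strand) to Stx7 (40921 bases, chromosome 10, 24149302 to 24190222, plus strand). Vamp3 (chromosome 4, 151047300 to 151057963, minus strand) lies within the gene body of Camta1 on the same strand but shares no exon base with it, and Stx5a (chromosome 19, 8741413 to 8756069, plus strand) contains the microRNA gene Mir6992 in 109 bases of its exons.

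In whole cells, compared in TPM, read counts scaled to exon length and library, Vamp3 had the highest level, 58.9 ± 16.4 TPM (SD, n = 16 libraries). It was followed by the endosomal syntaxin Stx12 with 38.5 ± 9.78 TPM and by Sec22b, the R-SNARE of traffic between endoplasmic reticulum and Golgi, with 30.0 ± 7.60 TPM. Stx12 and Sec22b differed by less than the larger of their SDs. Vamp2 stood at 22.3 ± 5.19 TPM and Stx5a, the Qa-SNARE of the early Golgi, at 16.3 ± 3.11 TPM. The other 5 genes formed a low group in which no neighbor differed from the next by more than 1 SD, from Vamp8 (11.6 ± 3.22 TPM) over Stx7 (10.5 ± 3.13 TPM), Bet1 (9.42 ± 1.94 TPM) and Vamp4 (8.37 ± 2.32 TPM) to Stx8 (7.60 ± 2.30 TPM). The value of Vamp2 rests on an exon length of 3809 bases, as the annotated exons of all its transcripts together cover most of its 3895 bases. As these are bulk samples, fewer cells with an mRNA and less mRNA per cell cannot be told apart.

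The first question was whether mRNAs of proteins that are inserted after translation were enriched in the membrane fraction over the cytosol. Levels are relative to the mRNA of each fraction and do not give amounts per cell. The paper estimates that the membrane fraction and the nucleus each hold more of the cell's mRNA than the cytosol. A lower level in a fraction therefore does not mean fewer molecules there. Every member except Vamp8 had a lower mean level in the membrane fraction than in the cytosol. Levels are given here as CPM scaled by the trimmed mean of M-values (TMM), tested with edgeR's quasi-likelihood test over the 64 libraries, and a gene was called where the Benjamini-Hochberg adjusted p was under 0.05 and the absolute log2 ratio over 0.5. Of the 10 members, 5 were called lower in the membrane fraction (Vamp2, Vamp3, Vamp4, Stx12 and Bet1), and 0 were called higher. DESeq2 called 6 lower, with Stx7 added (-0.53, adjusted p = 1.24e-06), and 0 higher. No member had a higher level at an unadjusted p under 0.05 by either tool. Over all 16093 genes tested, 12.9% were called lower and 24.1% higher. The median log2 ratio of the members was -0.50 and that of all genes -0.16, and 9 of the 10 members lay below the all-gene median. Apart from Vamp8, each of the members had an adjusted p under 0.05, so that the 4 genes Stx5a, Stx7, Stx8 and Sec22b missed the call by the size of the ratio alone.

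Vamp4, an R-SNARE of the trans-Golgi network and endosomes, had the lowest ratio. Its level in the cytosol ranged from 15.7 to 31.1 CPM with a median of 24.9 CPM, and in the membrane fraction from 11.5 to 17.7 CPM with a median of 15.4 CPM (16 libraries each). The ranges overlapped, but within the same culture the membrane fraction was lower in 16 of 16 cultures. The log2 ratio was -0.67 ± 0.10 (SE), a 1.59-fold lower level (adjusted p = 4.38e-08, edgeR).

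Vamp3, the widely expressed R-SNARE of recycling endosomes, was the most abundant member in the cytosol. There it ranged from 94.1 to 182 CPM (median 109 CPM), against 66.7 to 97.8 CPM (median 79.0 CPM) in the membrane fraction. The membrane fraction was lower in 16 of 16 cultures, with a log2 ratio of -0.63 ± 0.09 (SE, adjusted p = 1.59e-08, edgeR). The syntaxin Stx12 gave -0.57 ± 0.08 (SE, adjusted p = 2.17e-09, edgeR) and Bet1, a Golgi-directed SNARE of endoplasmic reticulum vesicles, -0.53 ± 0.09 (SE, adjusted p = 1.36e-06, edgeR), again lower in 16 of 16 cultures each. Stx7, which pairs with Stx8 and Vamp8 in late endosome fusion, had -0.49 ± 0.10 (SE), and Sec22b had -0.46 ± 0.08 (SE). Both were lower in the membrane fraction in 16 of 16 cultures.

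Vamp8, an R-SNARE of late endosomes and regulated secretion, stood apart from the other members. It ranged from 10.26 to 18.96 CPM (median 13.8 CPM) in the cytosol and from 10.8 to 23.2 CPM (median 15.1 CPM) in the membrane fraction, and these ranges overlapped. Its log2 ratio was 0.13 ± 0.14 (SE, adjusted p = 0.411, edgeR), with a higher value in the membrane fraction in 11 of 16 cultures. With library sizes in place of TMM scaling, the ratio of Vamp8 was -0.17, so its sign depends on the scaling.

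Vamp2, the R-SNARE of synaptic and other secretory vesicles, differed between the replicate pairs. In the cytosol, Vamp2 was measured at 27.2 to 34.7 CPM in the 6 libraries of replicates 1 and 2, at 10.5 to 21.5 CPM in the 6 of replicates 3 and 4, and at 37.2 to 39.6 CPM in the 4 of replicates 5 and 6. These 3 ranges did not overlap. In the membrane fraction the means of the pairs were 15.6, 17.6 and 27.9 CPM in that order. The log2 ratio of membrane fraction over cytosol was -0.89, 0.12 and -0.59 in these pairs taken alone, and -0.51 ± 0.14 in all (SE, adjusted p = 0.00144, edgeR). The difference between the pairs was not tested. The pooled value fell short of the call threshold without replicate 1, where it was -0.37 (adjusted p = 0.0427, edgeR), with all 72 libraries (-0.45), and with libraries summed per replicate (-0.49, adjusted p = 0.0726, edgeR). In the sums per replicate, 6 members had an adjusted p under 0.05 instead of 9.

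Within the replicate pairs, 1 member was called lower in replicates 1 and 2 (Vamp2), 6 in replicates 3 and 4 and 7 in replicates 5 and 6, while 10.4%, 10.8% and 27.8% of all genes tested were. The median log2 ratio of the members was -0.28, -0.59 and -0.55, against -0.06, 0.02 and -0.31 for all genes. Leaving out replicate 2 or replicate 5 raised the count to 8 members each, beside 3980 and 4228 of all genes called lower instead of 2068. Scaling also mattered for the count. With library sizes alone, 9 members were called lower and the median of all genes moved from -0.16 to -0.47, with 31.8% of all calls being higher in the membrane fraction instead of 65.2%. The members' median lay 0.34 below that of all genes with TMM scaling and 0.33 below it with library sizes.

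**Figure D1:**
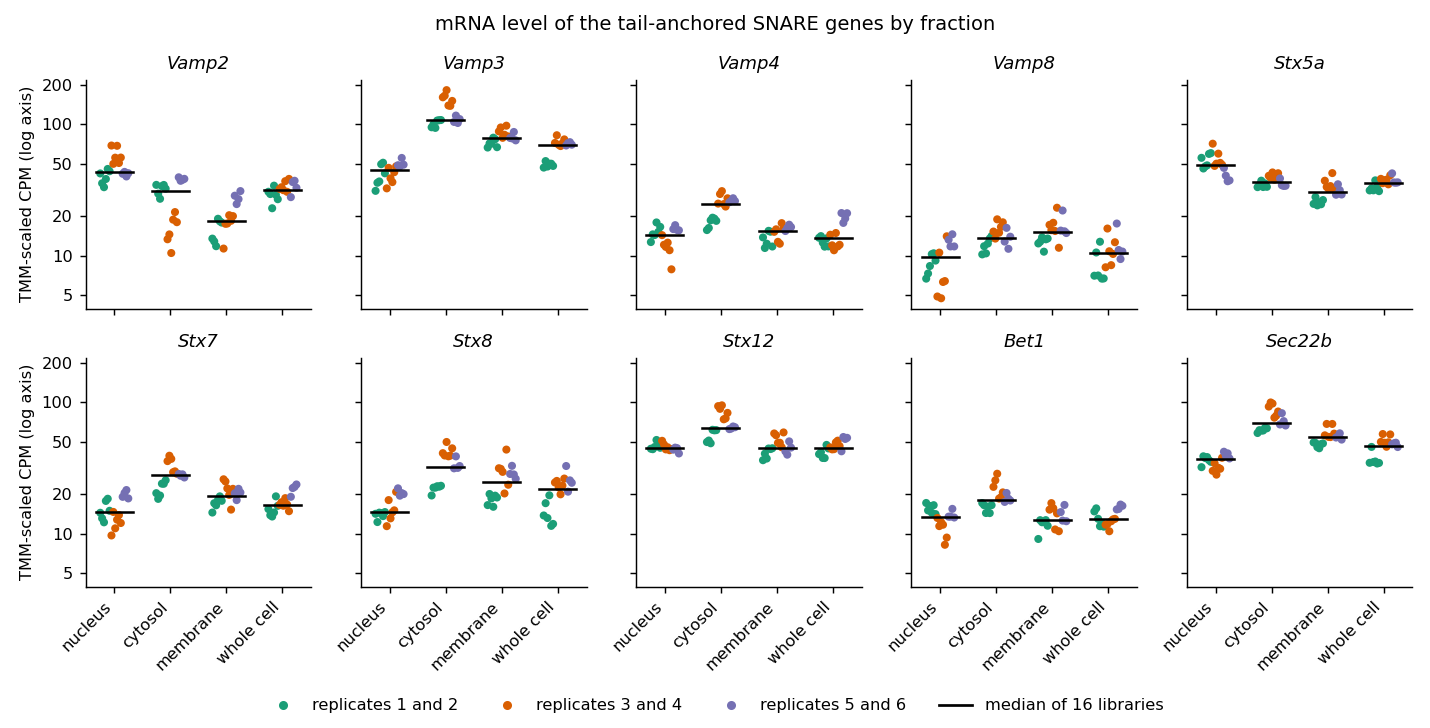
TMM-scaled CPM on a log axis for each SNARE gene in nucleus, cytosol, membrane fraction and whole cells, each point 1 library colored by replicate pair and each line the median of 16 libraries. Vamp3 was highest in the cytosol with a median of 109 CPM, and the cytosolic points of Vamp2 from replicates 3 and 4 lie at 10.5 to 21.5 CPM, below those of the other replicates.

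The study's measure of localization is the ratio of mean TPM in the membrane fraction to that in the cytosol, with values under 1.5 named cytosol-localized and values of 3 or more membrane-localized. TPM was computed here from the gene counts and annotated exon lengths, whereas the paper took it from RSEM, so values and gene numbers can differ. All 10 members were under 1.5, as were 80.9% of the 14717 expressed genes. The lowest were Vamp4 with 0.475 ± 0.0222 (SD between 6 replicates) and Vamp3 with 0.485 ± 0.0676, and the highest was Vamp8 with 0.819 ± 0.150. The median over all expressed genes was 0.663. Vamp2 varied most between replicates, from 0.251 to 1.05. With TMM-scaled CPM in place of TPM, the ratio was 0.630 for Vamp4 and 1.09 for Vamp8, both still under 1.5.

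Other gene lists, named by function, place these ratios. Of 17 further tail-anchored SNAREs tested, 6 were called lower in the membrane fraction and 0 higher, with a median log2 ratio of -0.41 and a range from -0.62 (Gosr2, a Golgi SNARE) to -0.08 (Stx6, of the trans-Golgi network). Of 5 SNAREs that have no transmembrane segment and are held on membranes by lipids or by partners, 2 were called lower, with a median of -0.44 and extremes of -1.05 (Snap23) and -0.11 (Stx11). For 17 soluble partners of SNAREs the median was -0.39, with 5 called lower and 1 higher. Vps41 was lowest with -0.88 and Uso1, a vesicle tether, highest with 1.14. Of 24 tail-anchored proteins outside the SNARE family, 8 were called lower and 2 higher, with a median of -0.35. They ranged from Serp1, a partner of the protein translocation channel (-0.76), to Tomm7, a subunit of the mitochondrial import pore (0.92).

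The contrast was with proteins of the same secretory pathway that carry a signal or several membrane segments and are inserted during translation. All 20 of these were called higher in the membrane fraction, with a median log2 ratio of 3.799. The lowest of them, the cargo receptor Tmed2, had 2.81 and the highest, Bcap31, 4.98. No SNARE gene of the 10 or of the 17 further ones reached the lowest of these values. The machinery that inserts tail anchors was mixed, with 9 of 16 genes called higher and 2 lower, from Emc2 (-0.56), a cytosolic subunit of the membrane protein complex EMC, to Emc3 (3.83), its membrane-embedded subunit.

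Grouping all coding genes by predicted hydrophobic segments places the ratios among all genes. Among tested genes with several segments, 81.5% were called higher in the membrane fraction (median log2 ratio 2.46, 2179 genes). Genes with no segment had a median of -0.28, with 6.44% called higher and 17.1% lower (8850 genes). For the 257 tested genes with 1 segment at the C-terminus, the class that holds the 10 SNARE genes, the median was -0.10, with 30.7% called higher and 11.3% lower. The 10 SNARE genes, with 5 called lower and 0 higher, are part of that class.

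**Figure D2:**
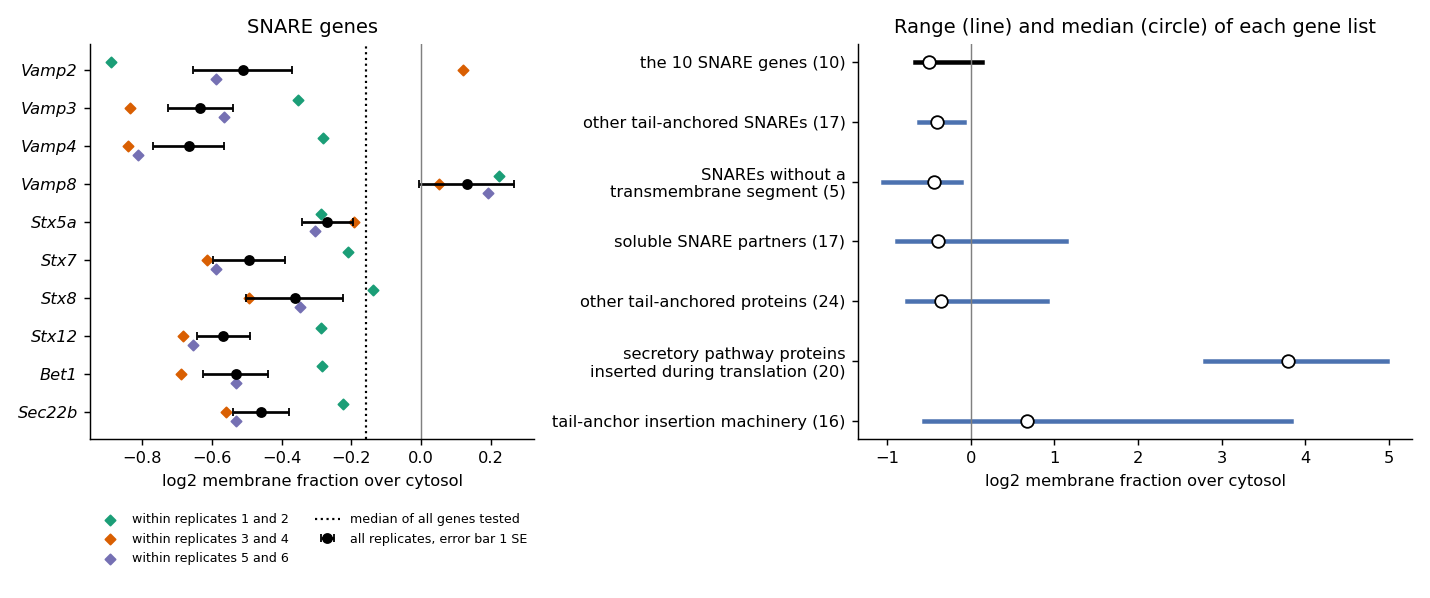
Left, log2 ratio of membrane fraction over cytosol for each SNARE gene (black, with SE) and within each replicate pair (diamonds), with the median of all genes tested as a dotted line at -0.16. Right, range and median of the same ratio for the SNARE genes and 6 comparison lists with the number of genes tested in brackets, in which only the proteins inserted during translation lie wholly above 2.

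The nucleus was compared with the cytosol in the same way. Of the 10 members, 7 were called lower in the nucleus (Vamp3, Vamp4, Vamp8, Stx7, Stx8, Stx12 and Sec22b) and 1 higher (Vamp2), while 21.2% of all genes were called lower and 42.5% higher. The members' median log2 ratio was -0.66 and that of all genes 0.29. Vamp3 had the lowest value, -1.51 ± 0.09 (SE, adjusted p = 9.59e-23, edgeR). Its nuclear libraries ranged from 31.2 to 55.6 CPM and did not overlap the cytosolic ones, which started at 94.1 CPM. Sec22b, at 28.2 to 42.1 CPM in the nucleus and 58.5 to 99.8 CPM in the cytosol, did not overlap either and had a log2 ratio of -1.06 ± 0.08 (SE, adjusted p = 1.26e-18, edgeR). Stx8, a Qc-SNARE of late endosomes, had -1.01 ± 0.14 (SE). Bet1 had -0.50 ± 0.09 (SE, adjusted p = 2.86e-06, edgeR), just short of the size required. Bet1 was called lower with DESeq2 (-0.61), with no filter (-0.66), with sums per replicate (-0.82) and with all 72 libraries (-0.86). It was also called lower within replicates 3 and 4 (-1.02) and 5 and 6 (-0.57). Leaving out any 1 of replicates 1, 2, 4, 5 and 6 gave the call too (-0.78 to -0.52). Some of these settings moved all genes as well. Their median, 0.29 in the main fit, was 0.26 with no filter and 0.18 with DESeq2. With sums per replicate it was -0.007, and with all 72 libraries -0.001.

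Vamp2 and Stx5a were the members with a higher level in the nucleus than in the cytosol, relative to each fraction's mRNA, in 16 of 16 cultures each. Stx5a ranged from 37.0 to 71.3 CPM in the nucleus (median 49.1 CPM) and from 33.3 to 43.1 CPM in the cytosol (median 36.4 CPM), with a log2 ratio of 0.45 ± 0.07 (SE, adjusted p = 1.09e-07, edgeR) that stayed under the required size. The ratio of Stx5a was 0.34 in replicates 1 and 2, 0.45 in replicates 3 and 4 and 0.03 in replicates 5 and 6. With sums per replicate, 0 members had a higher nuclear level at an unadjusted p under 0.05 (edgeR). Vamp2 ranged from 33.3 to 69.1 CPM in the nucleus (median 43.8 CPM). Its log2 ratio was 0.78 ± 0.14 in all (SE, adjusted p = 1.43e-06, edgeR), but 1.86 in replicates 3 and 4 alone. In replicates 1 and 2 it was 0.04, and in replicates 5 and 6 it was -0.03. Without replicate 4 the ratio of Vamp2 was 0.34 (adjusted p = 0.0442, edgeR), and the call was lost. The median of all genes moved as well, from 0.29 in all to -0.02 without replicate 4. It was 0.01 in replicates 1 and 2, 0.43 in replicates 3 and 4 and 0.007 in replicates 5 and 6. Within pairs, Vamp2 was called higher in the nucleus only in replicates 3 and 4. That pair had both the lowest cytosolic levels and the highest mean nuclear level, 58.4 CPM against 39.9 CPM in replicates 1 and 2 and 42.1 CPM in replicates 5 and 6.

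Stx7 ranged from 9.71 to 21.5 CPM in the nucleus (median 14.6 CPM) and from 18.4 to 39.3 CPM in the cytosol (median 28.0 CPM), and was lower in the nucleus in 16 of 16 cultures, with a log2 ratio of -0.86 ± 0.10 (SE). Vamp4 had -0.73 ± 0.10 (SE), Stx12 -0.59 ± 0.08 (SE) and Vamp8 -0.57 ± 0.14 (SE), the last lower in 14 of 16 cultures. In TMM-scaled CPM, Stx12 varied least among the members in the nucleus relative to its level, and its 16 libraries there lay between 40.9 and 51.7 CPM. In TPM this did not hold, with 45.8 ± 10.1 TPM (SD) for Stx12 against 28.2 ± 3.88 TPM for Sec22b.

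The comparison lists differed in the nucleus too. Of the 17 further tail-anchored SNAREs, 5 were called lower and 5 higher than in the cytosol, with a median log2 ratio of -0.21. Of the 24 other tail-anchored proteins 18 were called lower and 1 higher, with a median of -0.70, which is close to that of the 10 members. The 20 proteins inserted during translation were all called higher, with a median of 1.97.

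Within the pairs, the number of members called lower in the nucleus was 7, 8 and 7, and 30.5%, 24.5% and 22.9% of all genes were. Without replicate 3, 5 members were called, since Vamp8 (-0.44) and Stx12 (-0.49) then lay under the required size. Of all genes, 2983 were called lower without replicate 3 and 3409 with it.

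The labeling data give, for each gene, the share of new to total RNA, computed as T-to-C changes over covered T bases and divided by the conversion probability of the library. No background from unlabeled RNA was subtracted, so shares near 0.01 to 0.02 cannot be set apart from it here. T counts behind the exon shares of the members ranged from 2738 to 172654 per library. These are bases within reads and not independent molecules.

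Vamp2 had the highest share of the members by far. In the nucleus its share at 15 min was 0.180 and 0.105 in the 2 replicates, at 30 min 0.397 and 0.393, and at 40 min 0.676 and 0.654. At 60 min it was 0.832, 0.720, 0.840 and 0.724 in replicates 3 to 6, and at 120 min 0.789 and 0.734. The nuclear share was thus close to its final level by 60 min. Among 11575 genes with enough T counts in all libraries, 0.752% had a higher nuclear share at 60 min, where the median gene had 0.240.

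In the cytosol, the share of Vamp2 was 0.255 and 0.266 at 30 min and 0.728 and 0.718 at 120 min. At 60 min it was 0.322 and 0.298 in replicates 3 and 4 but 0.740 and 0.692 in replicates 5 and 6. The same pair difference ran through all genes, whose median cytosolic share at 60 min was 0.0946 in replicates 3 and 4 and 0.195 in replicates 5 and 6. At 60 min 6.22% of genes had a higher cytosolic share than Vamp2, and at 120 min 16.6%. In the membrane fraction the share was 0.274 and 0.238 at 30 min and 0.695 and 0.613 at 120 min.

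Its close relative Vamp3 behaved differently. The nuclear share of Vamp3 was 0.0648 and 0.0452 at 15 min, 0.240, 0.133, 0.260 and 0.207 at 60 min, and 0.351 and 0.313 at 120 min. In the cytosol it reached 0.254 and 0.258 at 120 min, where 67.6% of all genes were higher. The share of Vamp2 was above that of Vamp3 in all 16 libraries of each fraction, by a median factor of 2.95 in the nucleus, 4.44 in the cytosol and 4.64 in the membrane fraction. Levels ran the other way in the cytosol, where Vamp2 had a median of 0.226 times the TPM of Vamp3. For the other related pair, Stx7 and Stx12, the share of Stx7 was higher in 9 of 16 nuclear and 9 of 16 cytosolic libraries, so neither gene was regularly ahead.

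The annotated exons of Vamp2 need to be considered beside its share. One of its coding transcripts ends in an extended exon (chromosome 11, 69089976 to 69090690) that runs through what is an intron in the other and into the last exon (69090650 to 69092384), so the exon count of the gene includes what would elsewhere count as intron. The extended exon carried 17.3% of the T counts of Vamp2 exons in the nucleus (range 12.1% to 21.3% over 16 libraries), 11.3% in the cytosol and 12.5% in the membrane fraction. As the annotated exons overlap, such percentages do not exclude each other. Its share of new RNA at 60 min was 0.943 ± 0.0950 in the nucleus (SD, n = 4, from 0.848 to 1.06 over replicates 3 to 6) and at 120 min in the cytosol 1.14 on average (1.05 to 1.22, n = 2). The last exon alone, with 81.1% of the T counts in the nucleus and 84.5% in the cytosol, had a nuclear share of 0.760 ± 0.0762 at 60 min (SD, n = 4, from 0.688 to 0.842) and a cytosolic share of 0.687 on average at 120 min (0.681 to 0.692, n = 2). The share of Vamp2 was therefore high in the last exon too.

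**Figure D3:**
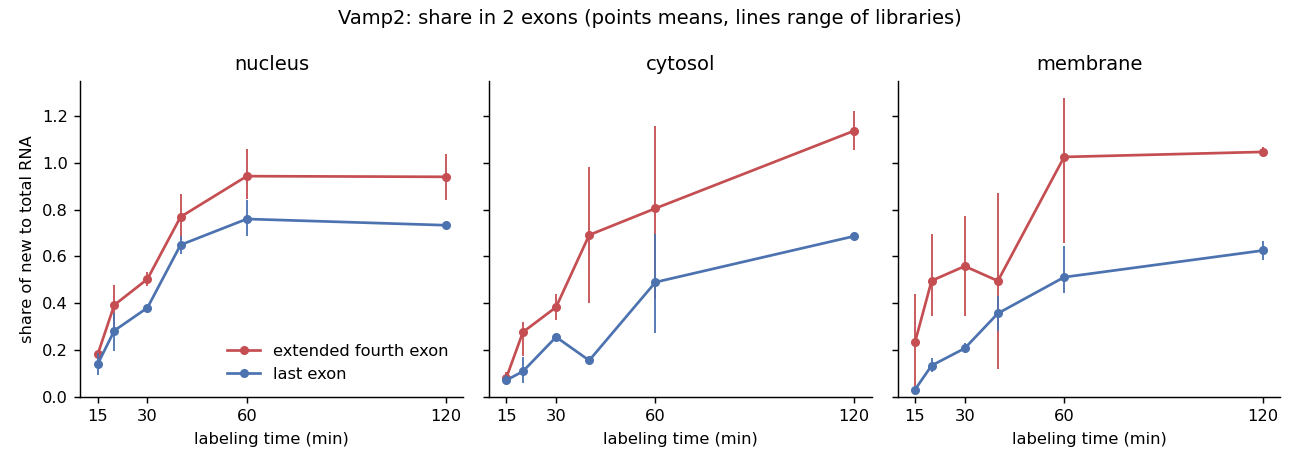
Share of new to total RNA against labeling time in the extended exon and the last exon of Vamp2, for nucleus, cytosol and membrane fraction, with points as means and lines as the range of the 2 or 4 libraries. The extended exon averages 0.943 in the nucleus at 60 min and the last exon 0.760.

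Stx5a was the other member whose nuclear share climbed high, though later than that of Vamp2. It was 0.155 and 0.160 at 40 min, 0.369, 0.383, 0.375 and 0.275 at 60 min, and 0.668 and 0.583 at 120 min in the nucleus. At 120 min 23.0% of genes had a higher nuclear share. In the cytosol Stx5a was at 0.386 and 0.333 at 120 min, close to the median gene (0.370), and in the membrane fraction at 0.334 and 0.308. Between 20 and 40 min the cytosolic share of Stx5a did not leave the range from 0.0141 to 0.0309.

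At 120 min (n = 2 libraries each), all other members had lower mean shares than Vamp2 and Stx5a. Earlier this did not always hold for Stx5a, which had 0.0522 in the nucleus at 20 min against 0.138 for Stx7. At 120 min the mean nuclear share of these other members lay between 0.245 for Vamp8 and 0.463 for Bet1. Their mean cytosolic share lay between 0.159 for Vamp8 and 0.296 for Sec22b. Of the 11575 genes, 84.6% had a higher cytosolic share than Vamp8 and 82.8% a higher one than Vamp4 (0.169) at that time. Stx7 (0.239), Stx8 (0.248), Stx12 (0.282) and Bet1 (0.290) also lay below the all-gene median of 0.370. Apart from Vamp2, each of the 10 members was below this median.

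Among the members other than Vamp2, the order of the nuclear shares at 20 min was not the order at 120 min. At 20 min (n = 4), Stx7 stood at 0.138 ± 0.0536 (SD) and Sec22b at 0.1095 ± 0.0749, above the all-gene median of 0.0768, whereas Vamp4 stood at 0.0143 ± 0.0144, with 98.4% of genes above it. At 120 min Bet1 (0.458 and 0.467) was above Stx7 (0.403 and 0.367), and Vamp4 had reached 0.310 and 0.298. Vamp3 moved from a place with 35.8% of genes above it at 20 min to one with 66.3% above it at 120 min, and Stx5a the other way, from 69.6% to 23.0%. Time points come from different replicate pairs, and the part of the pairs in these shifts was not tested. The paper also reports that exons farther from the 3′ end gain label later, which lowers their shares mainly at short labeling times. The shares here were not corrected for this delay, and its part in the early order was not tested.

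In whole cells, Vamp2 again had the highest share of the members, 0.229 ± 0.0206 at 20 min (SD, n = 4), 0.505 in replicates 3 and 4 and 0.848 in replicates 5 and 6 at 60 min (n = 2 each), and 0.718 ± 0.0894 at 120 min (n = 2). Stx5a followed at 120 min with 0.397 ± 0.171, and Vamp4 (0.147 ± 0.0514) and Vamp8 (0.149 ± 0.0264) were lowest. The all-gene median at that time was 0.283. With SDs as large as 0.199 (Stx7), the whole-cell values of the other 6 members at 120 min overlapped one another.

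The exon chosen also moved the share of the longest member. In Stx8 the exon with the most T counts, which held 27.6% of them in the nucleus, had a mean nuclear share of 0.393 at 120 min (0.339 and 0.446), against 0.275 over all exons of the gene. In the cytosol at 120 min the same exon of Stx8 had 0.379 (0.363 and 0.395) against 0.248 over all exons. The all-gene median of 0.370 was taken over all exons of each gene, so it cannot place this single exon. In the nucleus, the corresponding exon of Bet1, with 76.0% of the T counts, had 0.539 against 0.463. In Vamp3, where 1 exon held 92.8%, the values were 0.334 and 0.332.

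**Figure D4:**
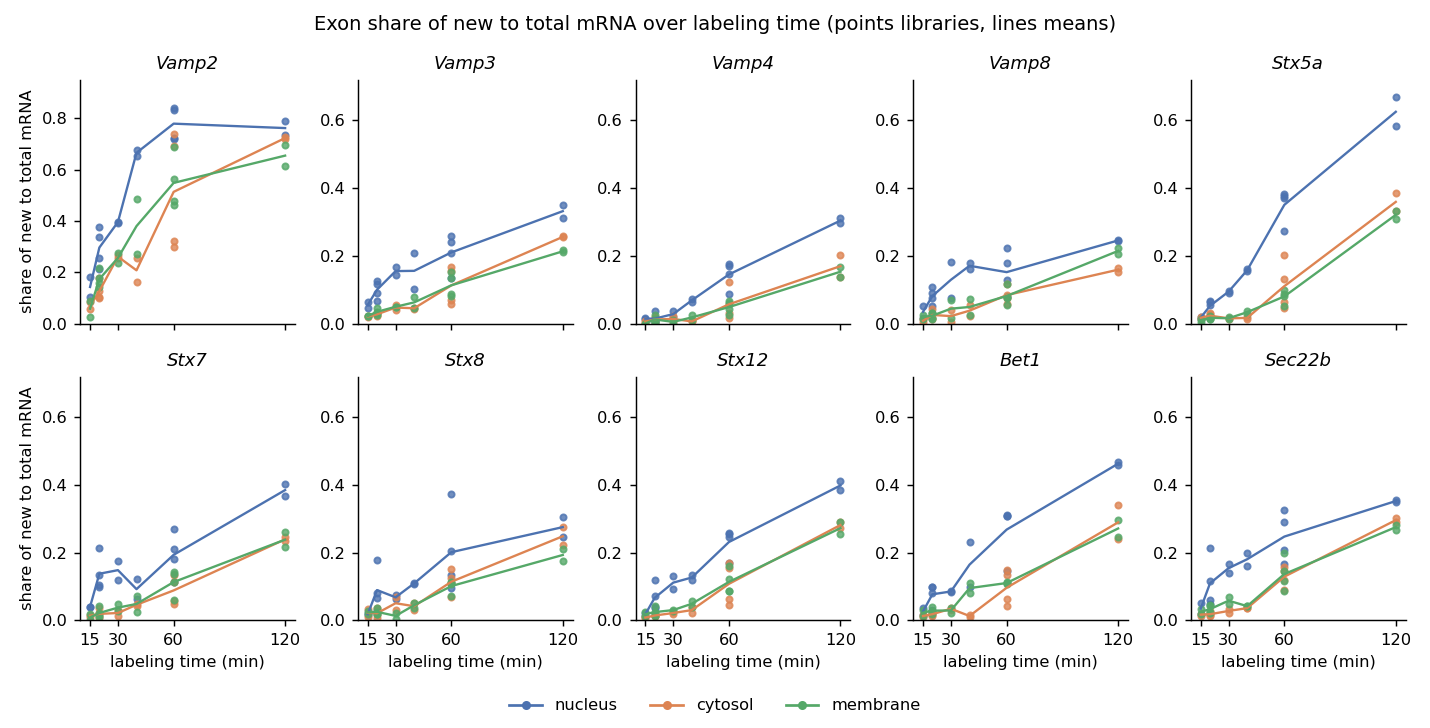
New over total mRNA in exons (share) against labeling time in minutes for each SNARE gene, in nucleus, cytosol and membrane fraction, with points as libraries and lines as means. The vertical axis of the top row ends at 0.95 for Vamp2 and 0.72 elsewhere, and Vamp2 reaches 0.779 in the nucleus at 60 min while Vamp4 reaches 0.145.

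All 10 members were called higher in share in the nucleus than in the cytosol and 0 lower, by edgeR's quasi-likelihood test on T-to-C counts with each culture as a term. Over the 11646 genes tested, 77.4% were called higher and 1.24% lower, so that a higher nuclear share was the rule for all genes. The members' log2 ratio of nuclear over cytosolic share ranged from 0.90 (Vamp2, ± 0.16 SE, adjusted p = 4.75e-07) to 1.78 (Stx7, ± 0.26 SE, adjusted p = 4.21e-09), and their median of 1.53 compared with 1.05 for all genes. Stx5a (1.66), Sec22b (1.62), Bet1 (1.61) and Stx12 (1.58) stood near the upper end, and Stx8 (0.92) beside Vamp2 near the lower. The nuclear share was above the cytosolic one in 16 of 16 cultures for Vamp2, Vamp3, Stx7 and Stx12, and in the fewest for Stx8 (11 of 16) and Vamp4 (13 of 16).

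The ratio depended on the replicate pair. From the first pair to the last, the members' median was 1.44, 2.16 and 0.64, and that of all genes 1.08, 1.54 and 0.19. In replicates 5 and 6, which held the long labeling times, 6 members were called higher, where 21.3% of all genes were, and Vamp2 (0.10), Vamp3 (0.44), Stx8 (0.19) and Sec22b (0.45) were not.

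Between membrane fraction and cytosol, no member was called in either direction (0 higher, 0 lower, edgeR), and limma on the log2 share gave 0 calls as well. At an unadjusted p under 0.05 there were 2 members, Stx12 and Bet1, both with the higher value in the membrane fraction. Over all genes, 2.4% were called higher and 11.3% lower. The members' log2 ratios ran from -0.23 (Stx8, ± 0.25 SE) to 0.56 (Bet1, ± 0.25 SE, adjusted p = 0.144), with a median of 0.21 against -0.01 for all genes. This absence of a call does not show that the shares were equal, since the SE of single members reached 0.37 (Vamp4). The proteins inserted during translation differed, with 20 of 20 called lower in the membrane fraction and a median log2 ratio of -1.48. Within replicates 3 and 4, 3 members were called higher in the membrane fraction (Bet1 1.48, Stx12 0.79 and Vamp2 0.72), where 3.61% of all genes were. In replicates 5 and 6 the ratios of these 3 were negative (-0.19, -0.12 and -0.17). In replicates 1 and 2, Sec22b was called higher (0.93), where 3.15% of all genes were.

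The libraries were poly(A)-selected. Introns are present mainly in RNA that is not yet spliced, and their share of new RNA reads out the precursor and that of exons the precursor and mature mRNA together. Introns held 57.8% of the T counts of Stx8 in the nucleus and 9.85% in the cytosol, and 55.6% against 17.5% for Bet1. In Vamp3 they held 13.3% and 2.27%, and in Vamp2 6.46% and 2.66%. Vamp8 had as few as 163 intron T counts in a nuclear library and stayed out of the test, which asked for 400 in each.

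Of the 9 members tested, 8 were called higher in nuclear intron share than in exon share and 0 lower, where 96.5% of 10380 genes were called higher and 0.106% lower. The exception was Vamp2 with a log2 ratio of 0.33 ± 0.11 (SE, adjusted p = 0.00675, edgeR), above only 1.99% of all genes tested. Within replicates 1 and 2, Vamp2 was called too (0.51, adjusted p = 0.00908, edgeR), as were 91.6% of all genes. Its nuclear intron share, taken from the small part of the gene outside annotated exons, averaged 0.911 at 60 min against 0.779 in its exons (0.958 against 0.776 in replicates 3 and 4, and 0.865 against 0.782 in replicates 5 and 6). The largest ratios were those of Vamp4 (2.79 ± 0.22 SE, adjusted p = 1.45e-12, edgeR) and Vamp3 (2.59 ± 0.14 SE, adjusted p = 6.38e-16, edgeR). Stx8 followed with 2.25, Stx7 with 2.15 and Stx12 with 2.07. Stx5a (1.56), Sec22b (1.46) and Bet1 (1.12) lay below the all-gene median of 1.91.

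The intron share of Vamp3 rose first. As Vamp3 lies inside Camta1 on the same strand, intron reads of Vamp3 and reads of unspliced Camta1 cannot be told apart, which also holds for the intron over exon ratio of Vamp3. In the nucleus the intron share of Vamp3 averaged 0.418 ± 0.00998 at 15 min (SD, n = 2), 0.728 ± 0.0581 at 20 min (n = 4) and 1.03 at 30 min (n = 2). As values above 1 occur, a share near 1 does not show that all intron RNA was made during labeling. At 30 min the other tested members were between 0.175 (Bet1) and 0.613 (Stx7). By 60 min (n = 4), the means were 1.03 for Stx7, 1.01 for Stx12 and 0.954 for Sec22b, against 0.810 for Stx8, 0.755 for Stx5a and 0.677 for Bet1. In replicates 3 and 4, and then in replicates 5 and 6, the means were 1.02 and 1.04 for Stx7, 0.948 and 1.08 for Stx12, 0.889 and 1.02 for Sec22b, 0.785 and 0.836 for Stx8, 0.709 and 0.801 for Stx5a, and 0.644 and 0.710 for Bet1. At 120 min (n = 2) Bet1 was still lowest with 0.815 ± 0.0311, beside Vamp2 with 0.845 ± 0.0491 and Stx8 with 0.901 ± 0.0579. The intron share of Bet1, a gene of 10074 bases, thus lay below that of Stx8, which is the longest member, at both times.

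**Figure D5:**
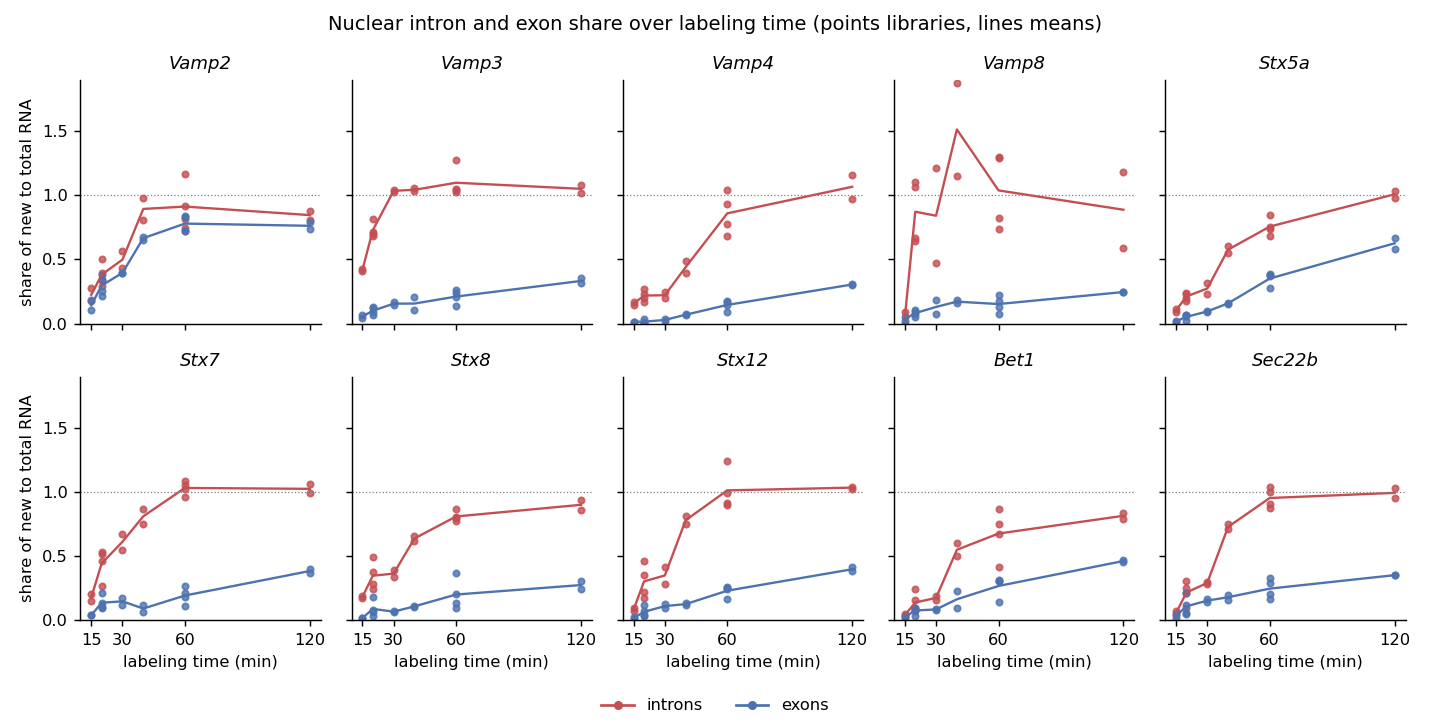
Nuclear share of new to total RNA in introns and exons against labeling time in minutes for each SNARE gene, with points as libraries, lines as means and a dotted line at a share of 1. Intron shares rise ahead of exon shares in Vamp3, which averages 0.728 at 20 min, while both run close together in Vamp2, and Vamp8 scatters because few T counts fall in its introns.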

How the data were processed

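RNA of fractionated and whole mESCs was poly(A)-selected and sequenced as stranded paired-end libraries. Cycloheximide was present in the fractionation buffers. The authors aligned reads to GRCm38 (mm10), and the submitters' processing notes name STAR 2.7.6, HTSeq 0.11.1 and RSEM 1.3.3. The deposited gene files hold raw read counts per gene, with the strand setting not given in the sources used here. The deposited labeling files hold counts of T bases and of T-to-C changes in exons and introns, and the conversion probability of each library as a fraction (0 to 1) that the authors estimated.

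The members and the comparison lists were chosen with earlier results of these data known. All 10 members are described, with the genes of highest and lowest membrane over cytosol ratio in each list. Levels were tested with edgeR 4.0.16 (R 4.3.3) on counts (filterByExpr, TMM, quasi-likelihood), shares on T-to-C counts with the logarithm of T counts times conversion probability as offset, where every library tested covered 400 or more T in the gene. A call required a ratio beyond 0.5 in log2 either way, with adjusted p under 0.05. Gene positions, lengths and coding sequences came from GENCODE M21 on GRCm38, to which 99.6% of the genes matched. Each culture was divided into all fractions, so samples are paired by design. Deviations from the fraction means correlated within the same culture with r of 0.459 to 0.804 between membrane fraction and cytosol and 0.0308 to 0.570 between nucleus and cytosol (16 cultures). The highest r was with the own culture in 7 of 16 cultures for the membrane fraction and in 5 of 16 for the nucleus. These correlations therefore do not set the own culture apart from other cultures. The level fits had no block, and the share fits had the culture as a term. The alternatives were DESeq2 1.42.0, library sizes alone, no filter, replicate or culture blocks, sums per replicate, all 72 libraries, each replicate pair alone, each replicate left out, T minimums of 100 and 1000, limma 3.58.1 on log2(share + 0.01), later labeling times alone and, chosen after seeing the data, the exon with the most T counts. According to the published methods, replicates were passaged independently. No pair of libraries held identical counts (0 pairs). Reads without a gene, 3.09% to 27.8% of each library, and reads matching several genes or places stayed out of library sizes. The scripts were tested on simulated data.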

Additional observations from a re-analysis of the deposited data

Results flagged for a closer look

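The members' levels and exon shares were screened in 160 groups of 4 libraries (20 and 60 min in each fraction) for a library whose gap to its nearest neighbor exceeded Dixon's critical share of the group's range, and 10 groups held one. Chance gives about 5% of groups. Of these, 5 concern levels at TMM-scaled CPM. In the nucleus at 60 min, Vamp8 had 4.76 CPM in replicate 3 against 13.3 to 14.6 CPM in the other 3 replicates. At 60 min, Stx7 had 37.1 CPM in the cytosol of replicate 3 against 28.3 to 28.6 CPM in the others, and 20.3 CPM in the membrane fraction of replicate 5 against 21.98 to 22.14 CPM. Stx8 had 31.5 CPM in the membrane fraction of replicate 3 at 20 min against 19.5 to 20.3 CPM. Sec22b had 57.0 CPM in whole cells of replicate 4 at 60 min against 47.96 to 49.32 CPM.

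The other 5 concern the labeled share. In the nucleus at 60 min, replicate 4 had the low value for Stx12 (0.169 against 0.245 to 0.258) and for Bet1 (0.145 against 0.307 to 0.311), and replicate 6 for Stx5a (0.275 against 0.369 to 0.383). Stx8 had 0.0730 in the membrane fraction of replicate 4 at 60 min against 0.108 to 0.112. Bet1 had 0.0622 in whole cells of replicate 3 at 20 min against 0.0245 to 0.0291.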

How the results depend on the processing

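Blocking changed no call: with the replicate block or the culture as block, 5 members were lower in the membrane fraction, and 7 lower and 1 higher in the nucleus. The T minimum, limma and all 72 libraries left 10 members with a higher nuclear share. With library sizes alone, 9 members and 7295 genes were lower in the membrane fraction. With no filter on low counts 3735 genes were lower there and 5160 in the nucleus. Within replicates 1 and 2, 1 member was lower in the membrane fraction, and within replicates 5 and 6, 4450 genes were. Leaving out 1 replicate gave 4 to 8 members and 1814 to 4228 genes lower in the membrane fraction, and 0 (without replicate 4) to 1 members higher in the nucleus. In the nucleus 0 members were higher with sums per replicate (5349 genes lower) and within replicates 1 and 2 or 5 and 6, and 5135 genes were lower with all 72 libraries.

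For the nuclear share, 6 members, 2790 genes higher and 782 lower were called within replicates 5 and 6, and 92 genes were lower with limma, 89 within replicates 3 and 4 and 258 without 15 and 20 min. For the membrane share, members called higher were 1 within replicates 1 and 2 and 3 within replicates 3 and 4, the genes called higher 429 and called lower 739 within replicates 3 and 4, 47 higher within replicates 5 and 6, 149 without 15 and 20 min and 124 to 405 without 1 replicate (124, 145 and 156 without replicates 2, 3 and 4). For introns, 20 genes were lower at a T minimum of 100, 7 at 1000, 27 within replicates 1 and 2 and 17 within replicates 5 and 6.

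Signs turned for the level ratio of Vamp8 with library sizes (-0.17) and without 1 replicate (-0.052 to 0.20), and for Vamp2 over cytosol within replicates 3 and 4 (membrane fraction, 0.12) and 5 and 6 (nucleus, -0.025). None of the following membrane share ratios was called where its sign turned. Vamp4 gave 0.073 with all 72 libraries, 0.17 in the exon with the most T counts, 0.35 within replicates 3 and 4, 0.060 without 15 and 20 min and -0.35 to 0.067 without 1 replicate. Within replicates 3 and 4, Vamp8 gave -0.23, Stx5a 0.39 and Stx8 0.029. Within replicates 5 and 6, Vamp2 gave -0.17, Vamp3 -0.22, Stx12 -0.12 and Bet1 -0.19. The cause was not tested.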
